A study of Mus musculus with 16 samples.

Results

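Antigen presentation genes were examined in mouse fat with and without lipocalin-2 made by fat cells. The 10 genes were given by name, 6 of MHC class I presentation (B2m, H2-K1, H2-D1, Tap1, Tapbp and Nlrc5) and 4 of class II presentation (H2-Aa, H2-Ab1, H2-Eb1 and Cd74). They are 10 of the 30325 genes in the table of gonadal fat and of the 30946 genes in the table of subcutaneous fat, and all 10 passed the filter on low values in both. Each gene was matched through its symbol to 1 Ensembl identifier, and its value was compared between vectors within each depot.

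The mice were females of the C57BL/6J background that carry the Lcn2 null allele of the strain B6.129P2-Lcn2tm1Aade/AkiJ, so the GFP controls lack working Lcn2 as well. Mice were injected in a vein at 8 weeks of age with an AAV8 vector, a virus that carries a gene into cells, and were sampled at 16 weeks after a period on the HF/HS diet D12266B. One vector carried LCN2 and the other GFP, a green fluorescent marker protein, and each was driven by the adiponectin promoter, which is active in fat cells. A target site of microRNA 122 in the vector limits its transcript in liver. Gonadal fat was profiled in 4 samples with LCN2 and 4 with GFP, and subcutaneous fat in 4 with LCN2 and 4 with GFP. The labels number the samples without stating whether equal numbers in the depots are 1 mouse, nor, beyond the group size, that samples came from separate mice.

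MHC class I molecules sit on nearly all nucleated cells and show peptides of the cell's own proteins to CD8 T cells. The heavy chain, from H2-K1 or H2-D1, pairs with the light chain B2m. Tap1 and its partner Tap2 move peptides into the endoplasmic reticulum. There Tapbp (tapasin) holds the transporter next to the pair while it is empty. Nlrc5 switches on class I genes. MHC class II molecules show peptides from engulfed material to CD4 T cells and are made mainly by B cells, dendritic cells and macrophages. H2-Aa and H2-Ab1 encode the chains of I-A, H2-Eb1 encodes the beta chain of I-E, and Cd74, the invariant chain, keeps the groove closed until the molecule reaches the endosome. Interferon-gamma raises genes of both classes. In fat tissue, class II is known from resident macrophages and dendritic cells, and fat cells can also make it.

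The promoters of genes from both classes share a pair of short boxes, and they are shown because the class I and class II genes of this list are compared below. The boxes are a TGANG, as in the X2 box, followed after 19 to 21 bases by ATTGG, the Y box, both in capitals. RefSeq promoters on GRCm38.p6 were matched for 7 of the 10 genes, of which 1 start was used for each sequence printed. Each line gives the 120 bases before the start site, read on the gene's strand.
B2m (chr2:122147567-122147686, plus): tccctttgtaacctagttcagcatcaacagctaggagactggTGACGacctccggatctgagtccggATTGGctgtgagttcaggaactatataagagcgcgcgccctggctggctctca
H2-K1 (chr17:34000348-34000467, minus): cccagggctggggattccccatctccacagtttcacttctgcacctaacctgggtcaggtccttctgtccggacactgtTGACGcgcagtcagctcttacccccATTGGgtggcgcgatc
H2-Aa (chr17:34287824-34287943, minus): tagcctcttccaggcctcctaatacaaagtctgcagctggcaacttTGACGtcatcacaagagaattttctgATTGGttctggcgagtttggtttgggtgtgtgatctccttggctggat
H2-Eb1 (chr17:34305747-34305866, plus): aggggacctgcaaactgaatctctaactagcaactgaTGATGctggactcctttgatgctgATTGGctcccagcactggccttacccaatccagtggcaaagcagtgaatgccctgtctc
The pair, searched on both strands of the 250 bases before the start, was found in 5 of the 7 genes, the fifth being H2-D1, and in 0.955% of the 27025 genes with a promoter in the table. The spacing was 20 bases in B2m, H2-K1 and H2-D1, 21 in H2-Aa and 19 in H2-Eb1. ATTGG alone was present in 7 of 7 and in 37.5% of all genes, and TGACG alone in 5 of 7 and in 19.8% of all genes. Tap1 and Tapbp held no such pair in this window. The motifs were chosen after the promoters had been looked at, and a match is a description of letters.

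Most of the genes lie in the MHC on chromosome 17 (GRCm38 coordinates, whole gene). H2-K1 (ENSMUSG00000061232) spans 33996017 to 34000347 on the minus strand, Tapbp (ENSMUSG00000024308) 33915899 to 33929292 on the plus strand, and H2-D1 (ENSMUSG00000073411) 35262730 to 35267499 on the plus strand. Tap1 (ENSMUSG00000037321) spans 34187553 to 34197225 on the plus strand. The class II genes H2-Ab1 (ENSMUSG00000073421, 34257689 to 34269419, plus), H2-Aa (ENSMUSG00000036594, 34282744 to 34287823, minus) and H2-Eb1 (ENSMUSG00000060586, 34305867 to 34316674, plus) are neighbours there. Outside the MHC, B2m (ENSMUSG00000060802) lies on chromosome 2 at 122147686 to 122153083, Nlrc5 (ENSMUSG00000074151) on chromosome 8 at 94434356 to 94527272 and Cd74 (ENSMUSG00000024610) on chromosome 18 at 60803848 to 60812652, all on the plus strand. Of Tapbp's exonic bases, 24.9% lie opposite the gene Gm19412 and 4.11% are shared with Zbtb22 on the same strand. Of Tap1's, 3.87% lie opposite Psmb9. The strand setting of the counting is not given in the sources used here, and reads of H2-K1 and H2-D1 can also match other class I genes of the MHC, so their counts carry that uncertainty.

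The samples were checked against their labels. In each depot the Lcn2 values of the LCN2 group lay wholly above those of the GFP group, but Lcn2 did not pass limma over all genes (1.93 ± 0.37, adjusted p 0.108, in gonadal and 0.95 ± 0.29, adjusted p 0.308, in subcutaneous fat). Lcn2 had 186, 189, 522 and 481 normalized counts in LCN2 gonadal samples 1 to 4, against 103, 62.1, 70.0 and 89.5 in GFP samples, and between 8.49 and 9.82 on the rlog scale in LCN2 subcutaneous samples, against 7.76 to 8.37 in GFP samples. The fat cell gene Adipoq was abundant in every library, with 83890 to 123527 normalized counts in LCN2 gonadal samples and 92501 to 144729 in GFP gonadal samples. Gonadal libraries held 35173260 to 42890102 reads, while no depth can be given for the subcutaneous ones. Several libraries stood apart. Skeletal muscle markers summed to 60469 normalized counts in gonadal LCN2 sample 4, against 1177 to 6952 in the other 7. Hepatocyte markers summed to 45421, 18988 and 16262 in gonadal LCN2 samples 2 and 1 and GFP sample 1, against 1885 to 4813 in the rest. In subcutaneous fat, B cell markers averaged 10.61 and 9.55 rlog in GFP samples 1 and 2 and 9.08 in LCN2 sample 4, against 6.21 to 6.78 in the other 5. Hepatocyte markers there averaged 7.28 and 8.92 rlog in GFP samples 1 and 2, against 5.85 to 6.54 in the rest.

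In gonadal fat, none of the 10 genes passed the test between vectors, and all 10 fitted differences were above 0. Across all 19536 genes tested, 20 passed limma at a Benjamini-Hochberg adjusted p below 0.05, a share of 0.102%, and 52.0% of all genes had a difference above 0. The 10 differences lay between 0.06 and 0.36 on the log2 scale, against a median of 0.01 over all genes, and adjusted p lay between 0.394 and 0.903. In bulk tissue such as this, more cells of a type and more RNA per cell cannot be told apart. At limma's unadjusted p below 0.05 the count was 0 of 10, against 14.8% of all genes. DESeq2 and edgeR on the recovered reads also called 0 of the 10.

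B2m, the class I light chain, was the gene whose groups did not overlap. It had 84865, 80728, 69044 and 78068 normalized counts in LCN2 samples 1 to 4, against 66777, 61143, 68682 and 67909 in GFP samples 1 to 4. The lowest LCN2 sample thus stood just above the highest GFP sample. The difference was 0.24 ± 0.15 (SE, log2 scale) with an adjusted p of 0.50. Groups that do not overlap were found for 1 of the 10 genes, and for 9.11% of all genes (4.4% higher with LCN2).

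The heavy chains differed less. H2-K1 had 39210, 35978, 31233 and 34734 normalized counts in LCN2 samples, against 28185, 29862, 30689 and 35575 in GFP samples, and the groups overlapped through GFP sample 4. Its difference was 0.18 ± 0.13 (adjusted p 0.562). H2-D1 had 60279, 47229, 44298 and 53791 in LCN2 samples, against 45525, 46286, 48405 and 56309 in GFP samples, with a difference of 0.06 ± 0.15 (adjusted p 0.903). Both the lowest H2-D1 sample of all, LCN2 sample 3, and the highest, LCN2 sample 1, carried LCN2.

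The differences of Tap1 and Nlrc5 rested largely on 1 sample, and that of Tapbp less so. Tap1, the peptide transporter subunit, had 3865, 1576, 1519 and 1369 normalized counts in LCN2 samples 1 to 4, against 1551, 1197, 1617 and 1773 in GFP samples. LCN2 sample 1 stood far above all others, and the other 3 LCN2 samples lay within the GFP range. Its difference of 0.31 ± 0.31 (adjusted p 0.696) was -0.03 without LCN2 sample 1. Nlrc5, the class I activator, had 3432, 1675, 1988 and 2055 normalized counts in LCN2 samples, against 1793, 1408, 2325 and 1478 in GFP samples. The same library was highest, and the difference of 0.36 ± 0.23 (adjusted p 0.527) was 0.15 without it. Tapbp had 9768, 9021, 8683 and 7517 in LCN2 samples, against 7365, 7621, 7958 and 7838 in GFP samples, with a difference of 0.18 ± 0.10 (adjusted p 0.436). For Tapbp 3 of 4 LCN2 samples were above every GFP sample, and LCN2 sample 4 was within the GFP range. Its difference was 0.12 without LCN2 sample 1.

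The 4 class II genes had a similar pattern over the samples. H2-Aa, the I-A alpha chain, had 11382, 11156, 9395 and 7723 normalized counts in LCN2 samples 1 to 4, against 7535, 6533, 9118 and 10444 in GFP samples 1 to 4. H2-Ab1, its beta chain, had 9707, 9359, 7907 and 6507 in LCN2 samples, against 5995, 5142, 7302 and 8601 in GFP samples. In both genes LCN2 samples 1 and 2 were highest, GFP sample 2 was lowest and GFP sample 4 lay above LCN2 samples 3 and 4, so the groups overlapped. H2-Eb1, the I-E beta chain, had 8765, 8676, 7734 and 6131 in LCN2 samples, against 5840, 5022, 7250 and 7895 in GFP samples. Cd74, the invariant chain, had 22596, 23178, 20871 and 16208 in LCN2 samples, against 15890, 13225, 17382 and 19698 in GFP samples. LCN2 samples 1 to 3 were all above GFP sample 4 for Cd74, and LCN2 sample 4 was not. The differences were 0.24 ± 0.18 for H2-Aa, 0.32 ± 0.18 for H2-Ab1, 0.28 ± 0.17 for H2-Eb1 and 0.33 ± 0.16 for Cd74, with adjusted p from 0.394 to 0.576. Without GFP sample 2 they were between 0.13 and 0.22.

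**Figure D1:**
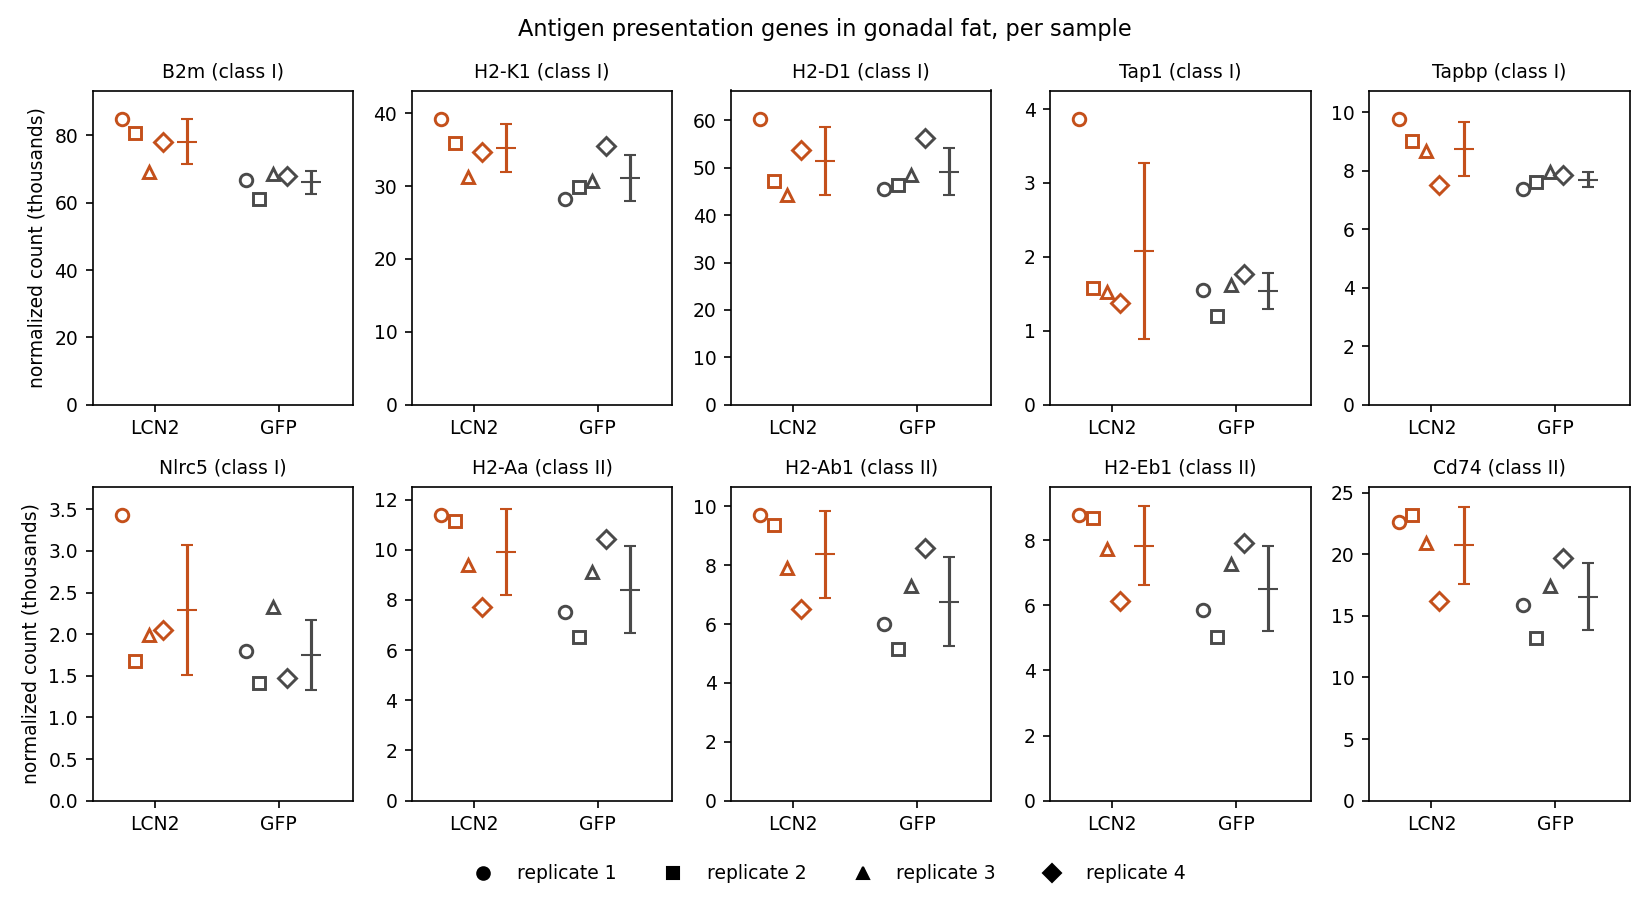
Normalized counts (axis from 0) of the 10 genes in gonadal fat, with 4 LCN2 samples on the left and 4 GFP samples on the right of each panel, a symbol for each replicate number, and the mean ± SD beside them. LCN2 sample 1 (circle) is the highest of the 8 for 9 of the 10 genes and is far above the rest for Tap1 (3865) and Nlrc5 (3432).

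LCN2 sample 1 was the highest library for 6 of 6 class I genes and for 3 of 4 class II genes, Cd74 being highest in LCN2 sample 2. It was also the highest for 18 of 18 interferon-induced genes, whose summed level was 50336 normalized counts there, against 15226 to 18576 in the other LCN2 samples and 15917 to 21641 in GFP samples. Iigp1, an interferon-induced GTPase, had 9881 normalized counts in LCN2 sample 1, against 1527 to 1932 in the other LCN2 samples and 1253 to 2172 in GFP samples. The same library was the lowest of the 4 LCN2 samples for Lcn2 itself, with 186. In subcutaneous fat the library labelled LCN2 replicate 1 was again highest for 18 of 18 interferon-induced genes, with a mean of 10.31 rlog, against 9.51 to 9.61 in the other LCN2 samples and 9.57 to 9.71 in GFP samples. The part of these transcripts in the gonadal differences of the class I genes was not tested beyond leaving the library out. Without it, 8 of the 10 gonadal differences were above 0, with a highest of 0.28 for Cd74, and H2-D1 (-0.02) and Tap1 (-0.03) were below 0.

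In subcutaneous fat, none of the 10 genes passed the test either, and the class II genes had differences near 0. Of the 20302 genes tested, 0 passed limma at an adjusted p below 0.05 (0%), while 2851 had an unadjusted p below 0.05 (14%). Class II differences were 0.00 ± 0.20 for H2-Aa, 0.03 ± 0.18 for H2-Ab1, 0.03 ± 0.18 for H2-Eb1 and 0.01 ± 0.22 for Cd74, with adjusted p of at least 0.956. Class I differences lay between -0.18 for Tap1 and 0.25 for B2m. Values in this depot are rlog, a log2 scale that pulls weakly expressed genes towards their average.

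B2m had the smallest p of the 10 in subcutaneous fat. Its rlog values were 15.99, 16.06, 16.05 and 15.82 in LCN2 samples 1 to 4, against 15.75, 15.65, 15.87 and 15.66 in GFP samples 1 to 4. Only LCN2 sample 4 was below a GFP sample, sample 3. The difference was 0.25 ± 0.11, with limma's unadjusted p at 0.0459 and an adjusted p of 0.350. It is 1 of 10 genes at that unadjusted threshold, and 0 of the 10 had groups that did not overlap, against 7.08% of all genes.

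Its partner chains did not have the same difference. H2-K1 had rlog values of 15.29, 15.09, 15.12 and 15.00 in LCN2 samples, against 15.27, 15.14, 15.03 and 15.09 in GFP samples, a difference of -0.01 ± 0.10 (adjusted p 0.977). H2-D1 had 15.85, 15.66, 15.64 and 15.61 in LCN2 samples, against 15.61, 15.54, 15.63 and 15.71 in GFP samples, a difference of 0.07 ± 0.10 (adjusted p 0.758). Sample 1 was the highest of its group for H2-K1 with either vector. Tapbp had 12.83, 12.84, 12.89 and 12.67 in LCN2 samples, against 12.76, 12.67, 12.77 and 12.66 in GFP samples, a difference of 0.09 ± 0.06 (adjusted p 0.509), with 3 of 4 LCN2 samples above every GFP sample.

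Tap1 and Nlrc5 were highest in GFP sample 1 here. Tap1 had rlog values of 11.54, 10.79, 10.84 and 10.77 in LCN2 samples 1 to 4, against 11.65, 11.21, 10.75 and 11.03 in GFP samples 1 to 4, a difference of -0.18 ± 0.23 (adjusted p 0.726). Nlrc5 had 11.21, 10.67, 10.78 and 10.85 in LCN2 samples, against 11.51, 11.14, 10.76 and 10.79 in GFP samples, a difference of -0.17 ± 0.18 (adjusted p 0.667). In both genes LCN2 sample 1 and GFP samples 1 and 2 were the 3 highest libraries. Without GFP samples 1 and 2 the differences turned to 0.09 for Tap1 and 0.10 for Nlrc5.

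The class II genes again had a similar order of samples to each other, with the subcutaneous GFP sample 1 highest. H2-Aa had rlog values of 13.38, 13.02, 13.43 and 13.24 in LCN2 samples 1 to 4, against 13.84, 13.31, 13.02 and 12.90 in GFP samples 1 to 4. H2-Ab1 had 13.02, 12.63, 13.10 and 12.84 in LCN2 samples, against 13.38, 12.84, 12.69 and 12.58 in GFP samples. For both, GFP sample 1 was the highest library and GFP sample 4 the lowest, so the LCN2 range lay inside the GFP range. H2-Eb1 had 12.96, 12.60, 13.00 and 12.74 in LCN2 samples, against 13.31, 12.79, 12.60 and 12.49 in GFP samples. Cd74 had 14.31, 13.97, 14.50 and 14.29 in LCN2 samples, against 14.87, 14.31, 14.03 and 13.83 in GFP samples. The same holds for these genes, and the SD within GFP samples was larger than within LCN2 samples for all 4.

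**Figure D2:**
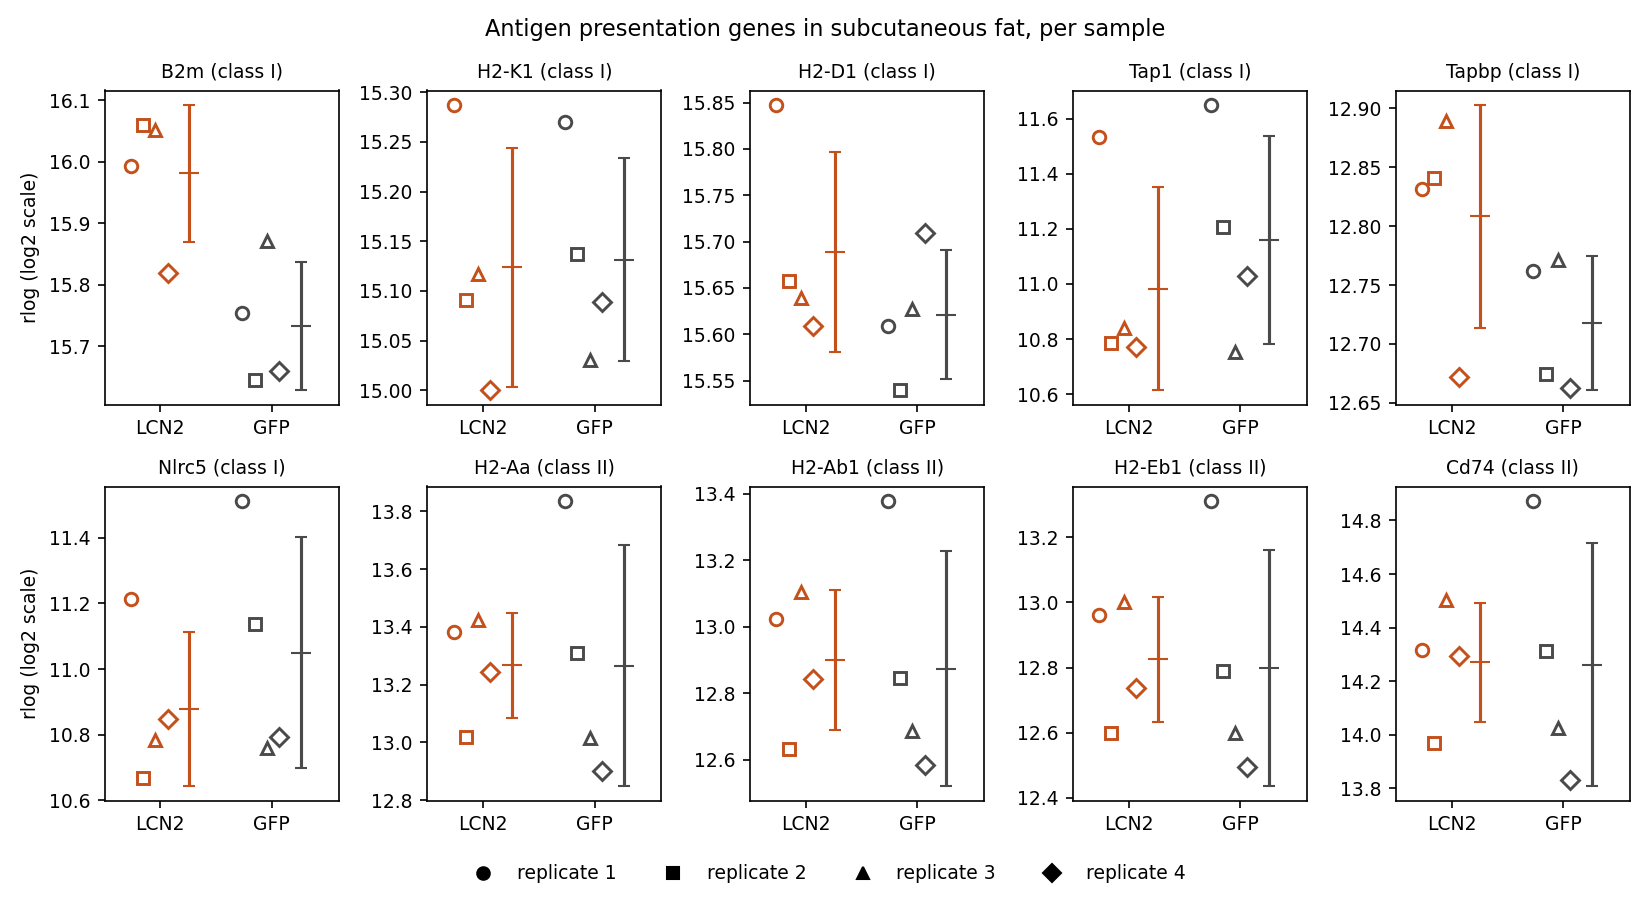
The rlog values (log2 scale, axes not from 0) of the 10 genes in subcutaneous fat, LCN2 samples left and GFP samples right in each panel, with a symbol for each replicate number and the mean ± SD beside them. GFP sample 1 (circle) is highest for the 4 class II genes, 13.84 for H2-Aa, and B2m is the gene in which the LCN2 samples lie highest relative to GFP samples.

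GFP sample 1 also held the most transcripts of lymphocytes. The mean level of B cell markers was 6.21, 6.29, 6.78 and 9.08 rlog in LCN2 samples, against 10.61, 9.55, 6.38 and 6.21 in GFP samples. T and NK cell markers averaged 5.97 to 6.56 in LCN2 samples, against 8.58, 8.32, 6.17 and 6.36 in GFP samples, and lymph node stroma markers 5.37 to 6.33 in LCN2 samples, against 8.75, 8.01, 5.56 and 5.67 in GFP samples. Among class II genes known from B cells, H2-Ob, part of the inhibitor of peptide exchange, had 6.84, 6.14, 6.89 and 8.79 rlog in LCN2 samples, against 10.57, 9.5, 6.57 and 6.69 in GFP samples. H2-Ob was higher in the 3 libraries with B cell transcripts than in any of the other 5. H2-Aa in LCN2 sample 4 (13.24) was lower than in LCN2 samples 1 and 3. The part of B cells in either gene was not tested. GFP samples 1 and 2 were also the highest in hepatocyte markers, so leaving them out does not set lymphocyte transcripts aside alone. Without GFP samples 1 and 2 all 10 differences were above 0, from 0.02 for H2-D1 to 0.34 for Cd74, with the 4 class II genes between 0.27 and 0.34. Without LCN2 sample 4 as well, a choice made after seeing the data, they were between 0.05 and 0.33. In both settings 0 of 10 genes passed, and 919 and 778 of all genes had limma's unadjusted p below 0.05.

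**Figure D3:**
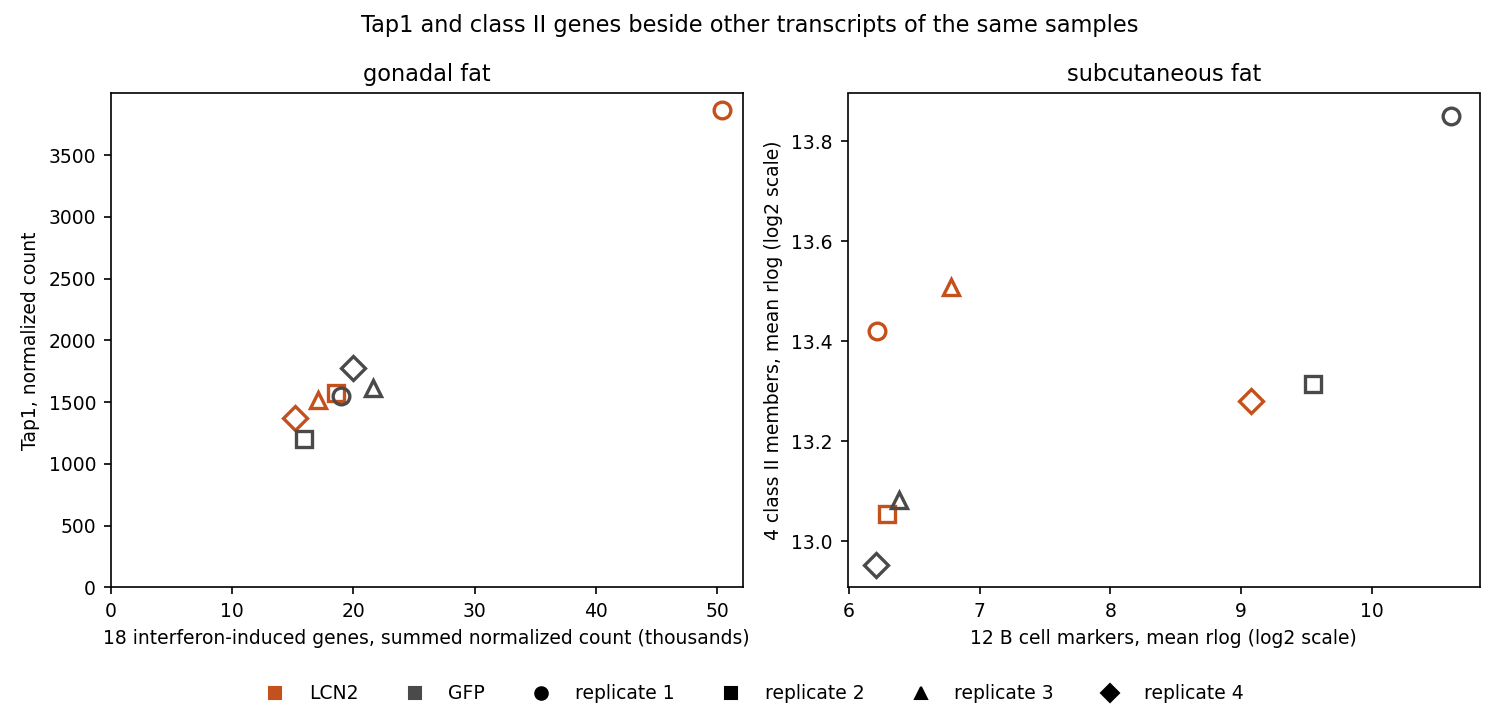
Left, Tap1 (normalized count) against the summed normalized count of 18 interferon-induced genes in the 8 gonadal samples. Right, the mean rlog of the 4 class II genes against the mean rlog of 12 B cell markers in the 8 subcutaneous samples. Colours give LCN2 and GFP and symbols the replicate number: gonadal LCN2 sample 1 stands alone at the upper right (3865 against 50336), and subcutaneous GFP sample 1 has the highest value on both axes (13.85 and 10.61).

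The classes were then compared within each sample. The value of each gene was centred on its mean over the 8 samples of a depot and averaged over the class. In gonadal fat the class I mean was 0.50, 0.01, -0.06 and -0.01 in LCN2 samples 1 to 4, against -0.14, -0.26, -0.01 and -0.03 in GFP samples. The class II mean was 0.34, 0.32, 0.12 and -0.20 in LCN2 samples, against -0.26, -0.49, -0.01 and 0.17 in GFP samples. LCN2 minus GFP was 0.22 for class I and 0.29 for class II, against a spread within groups (pooled SD) of 0.20 and 0.27. Leaving out 1 sample gave 0.09 (without LCN2 sample 1) to 0.28 (without LCN2 sample 3) for class I. For class II it gave 0.18 (without GFP sample 2) to 0.40 (without LCN2 sample 4). Class II minus class I differed between the vectors by 0.07, less than its spread of 0.22. That value was -0.03 without LCN2 sample 2 and 0.15 without GFP sample 4. A mean over genes chosen by name was given no test.

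In single samples the classes parted. Class II stood above class I in gonadal LCN2 samples 2 and 3 (by 0.32 and 0.18) and GFP sample 4 (0.21), and under it in LCN2 samples 1 and 4 (-0.17 and -0.19) and GFP samples 1 and 2 (-0.12 and -0.23). In subcutaneous fat LCN2 minus GFP was 0.01 for class I, 0.02 for class II and 0.01 for class II minus class I, each far within its spread of 0.14, 0.31 and 0.23. Without GFP samples 1 and 2 they were 0.10, 0.30 and 0.20. There, class II minus class I was 0.36 in GFP sample 1 and -0.27 in GFP sample 4, so the widest gaps were between samples of 1 vector.

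**Figure D4:**
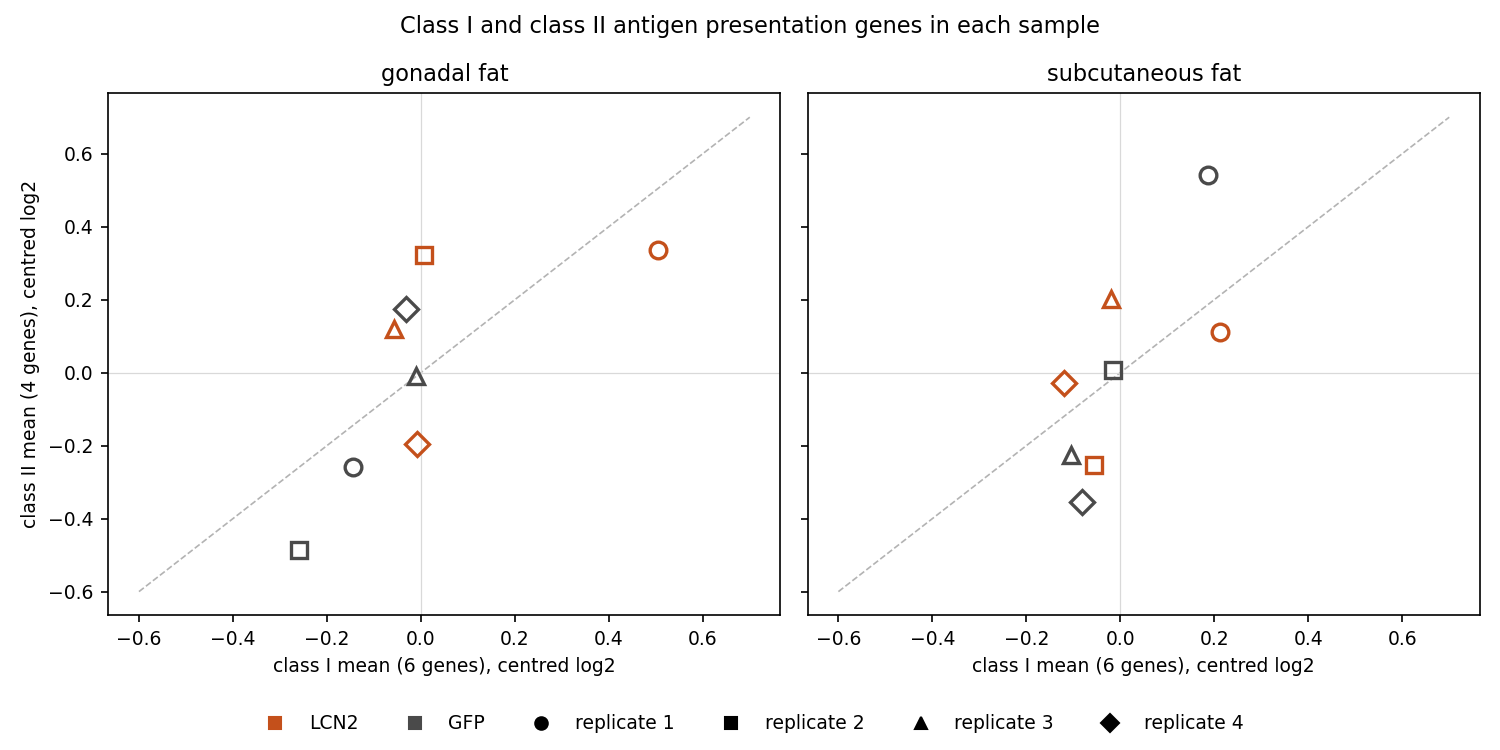
Class II mean (4 genes) against class I mean (6 genes) per sample, both centred on the gene's mean over the 8 samples of the depot (log2 scale), gonadal fat left and subcutaneous fat right, with equal values on the dashed line. Colours give LCN2 and GFP. Gonadal LCN2 sample 1 has the highest class I mean (0.50) and subcutaneous GFP sample 1 the highest class II mean (0.54).

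Class II genes kept a nearly fixed ratio to each other. Over the 8 gonadal samples the log2 ratio of H2-Aa to H2-Ab1 lay between 0.23 and 0.35, a range of 0.12, while H2-Aa itself ranged over 0.80 and H2-Ab1 over 0.92. The largest range of a class II pair was 0.24 in gonadal fat (H2-Aa to Cd74) and 0.25 in subcutaneous fat (H2-Ab1 to Cd74), where Cd74 itself ranged over 1.04. Class I genes were less uniform. The log2 ratio of H2-K1 to H2-D1 ranged over 0.30 in gonadal and 0.28 in subcutaneous fat, while that of B2m to Tap1 ranged over 1.38 and 1.17. Heavy chains and B2m thus moved within 0.48 over the gonadal samples, and Tap1 and Nlrc5 over 1.69 and 1.28. The samples of a depot share their processing, and these ranges describe 8 libraries each.

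**Figure D5:**
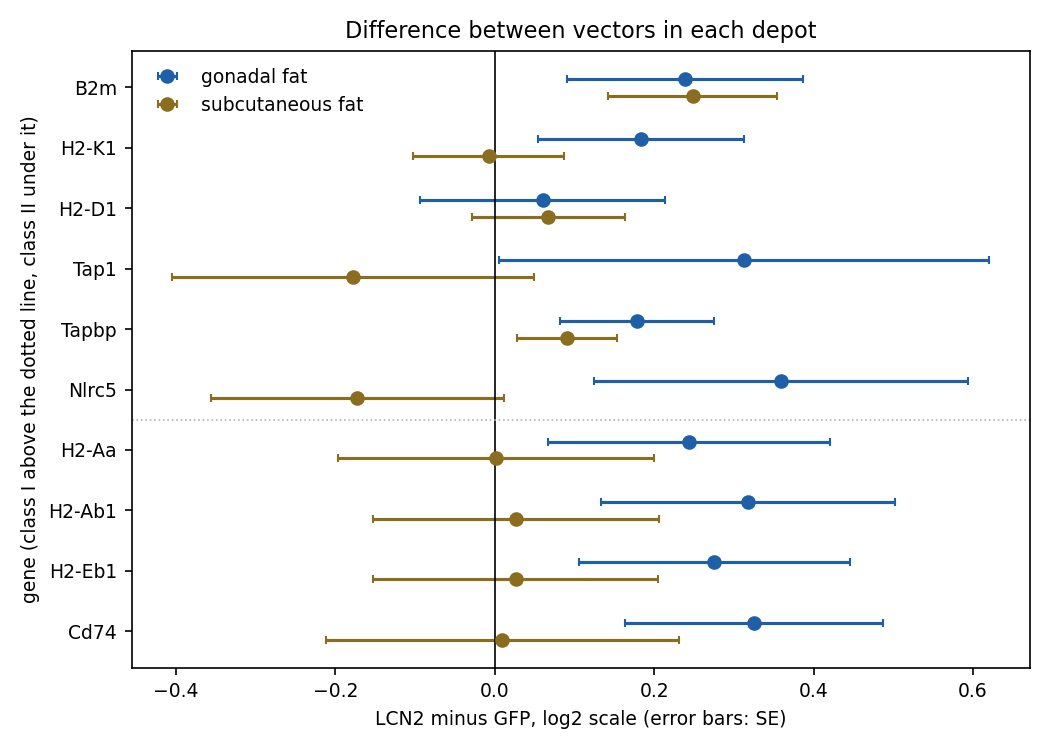
LCN2 minus GFP difference of each gene (log2 scale) in gonadal and subcutaneous fat, with SE as error bars, class I above the dotted line and class II under it. Gonadal differences lie between 0.06 and 0.36 and subcutaneous ones between -0.18 and 0.25, and B2m has nearly the same difference in both depots (0.24 and 0.25).

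Per kilobase of exon, the order of the levels was almost the same with either vector. In gonadal fat B2m was first with 90903 normalized counts per kb with LCN2 and 76893 with GFP, followed by H2-D1 (19930 and 19050). H2-K1 and Cd74 came next and changed places, H2-K1 with 12011 and 10578 and Cd74 with 12337 and 9856, a gap within the spread of samples. H2-Eb1 (4026 and 3344), H2-Ab1 (3259 and 2632) and H2-Aa (2610 and 2214) followed. Tapbp (2411 and 2121) was close to H2-Aa, and Tap1 (380 and 280) and Nlrc5 (269 and 206) were last. Together the 10 genes took 0.508% to 0.666% of reads in LCN2 samples and 0.449% to 0.670% in GFP samples. The subcutaneous order, on rlog less the log2 of length, ran from B2m (16.20 with LCN2 and 15.95 with GFP) to Nlrc5 (7.79 and 7.96), with H2-K1 (13.57 and 13.58) and Cd74 (13.52 and 13.51) again side by side.

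The rest of the pathway was read from lists of related genes. In gonadal fat no list held a gene that passed limma over all genes. Of 11 other genes of class I processing, 9 were above 0 (median difference 0.11), and of 15 further class I genes 13 were (0.16). Single genes had groups apart in 1 of 11 and 0 of 15, against 9.11% of all genes. The summed levels of the lists, which weigh abundant genes most, were narrowly apart. For class I processing they were 39393 to 46034 normalized counts with LCN2 against 37206 to 39240 with GFP. For the further class I genes they were 62845 to 78988 against 54332 to 62436. By the median centred level the groups overlapped in both lists. It was -0.12 to 0.25 with LCN2 against -0.12 to 0.07 with GFP for class I processing. For the further class I genes it was -0.13 to 0.46 against -0.30 to 0.19. LCN2 sample 1 was the highest library for 8 of 11 and 11 of 15 of these genes, and the sum of the 6 class I genes themselves overlapped, at 156765 to 201418 with LCN2 against 147517 to 170882 with GFP. Calr, the chaperone calreticulin of the peptide loading complex, had 13297, 12375, 12372 and 12063 normalized counts in LCN2 samples, against 10664, 9735, 11030 and 11252 in GFP samples, a difference of 0.23 ± 0.09 (adjusted p 0.263). Tap2, the other transporter subunit, had 2345 in LCN2 sample 1, against 1414 to 1696 in the other 7. Hfe, a class I-like protein that binds B2m and controls iron uptake, had 3029, 6194, 6976 and 4070 in LCN2 samples, against 2764, 2793, 4694 and 1533 in GFP samples, and the groups overlapped (0.82 ± 0.36, adjusted p 0.336).

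Class II partners in gonadal fat had larger differences than the 4 class II genes in a few cases, without passing the test. Of 12 tested genes of class II processing, 9 were above 0, with a median of 0.14. H2-DMb1, a chain of the molecule that exchanges peptides on class II, had 1108, 1179, 980 and 858 normalized counts in LCN2 samples, against 694, 561, 724 and 937 in GFP samples (0.51 ± 0.16, adjusted p 0.210). Ctsl, the protease cathepsin L, had a difference of 0.41 ± 0.14 (adjusted p 0.240). H2-Eb2 was too low to be tested, with at most 10.6 normalized counts in any sample.

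Among 17 tested genes of MHC transcription and interferon-gamma signalling, 12 were above 0 in gonadal fat (median 0.10). Irf8, a transcription factor of dendritic cells and macrophages, had 1055, 1130, 1222 and 1055 normalized counts in LCN2 samples, against 659, 461, 707 and 785 in GFP samples. Its groups were well apart, and the difference was 0.80 ± 0.16 with an adjusted p of 0.109 by limma. DESeq2 on the recovered reads, which called 818 of the 19536 genes, called Irf8. Ciita, the master regulator of class II transcription, had 748, 658, 489 and 402 in LCN2 samples, against 455, 285, 479 and 472 in GFP samples, with LCN2 samples 1 and 2 highest and GFP sample 2 lowest, as for H2-Aa and H2-Ab1. Of the co-stimulatory genes, Cd274 (PD-L1) had 3237, 1206, 1262 and 1120 in LCN2 samples, against 741, 484, 858 and 675 in GFP samples. The groups did not overlap, and the difference was 1.18 ± 0.33 (adjusted p 0.185 by limma, called by DESeq2). Without LCN2 sample 1 the difference was 0.82. Other than B2m, Calr, Irf8 and Cd274, no gene of these pathway lists had groups apart in gonadal fat.

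In subcutaneous fat the same lists went the other way in part. Medians were not below 0 for the further class I genes (8 of 15 above 0, median 0.00) and the interferon-induced genes (13 of 18, 0.20). The interferon-induced genes had 13 of 18 above 0 in gonadal fat too (median 0.20). Class I processing had 5 of 11 genes above 0 (median -0.08), class II processing 3 of 13 (-0.20), transcription and signalling 3 of 17 (-0.06), and co-stimulation 1 of 7 (-0.28), against a median of -0.00 and 49.8% above 0 over all genes. GFP sample 1 was the highest library for 10 of 13 class II processing genes, 10 of 17 transcription and signalling genes and 6 of 7 co-stimulatory genes, and its part in these medians was not tested. Cd1d1, which shows lipids to NKT cells, had 13.01, 13.47, 13.43 and 12.99 rlog in LCN2 samples, against 12.67, 12.45, 13.03 and 12.70 in GFP samples (0.51 ± 0.16, adjusted p 0.308). Ctsl had a difference of 0.48 ± 0.14 (adjusted p 0.308), near its gonadal value. Irf8 had a difference of -0.24 ± 0.41 and was highest in GFP samples 1 and 2, at 10.96 and 10.47 rlog. Without those 2 samples the difference was 0.52. Whether the vector's effect on any gene differed between the depots was not tested, since the tables were normalized separately.

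Markers of cells that can carry class II, and of other cells, were listed beside these values. In gonadal fat 7 of 14 macrophage markers were above 0 (median -0.02), and their summed level was 25258 to 44231 normalized counts with LCN2, against 30824 to 40772 with GFP. Dendritic cell markers had 8 of 11 above 0 (median 0.31), and their sum was 3171 to 5128 with LCN2, against 3356 to 4493 with GFP. Itgax (CD11c) had a difference of 1.11 ± 0.38 (limma adjusted p 0.234). Batf3, a factor of cross-presenting dendritic cells, had one of 0.64 ± 0.20 (limma adjusted p 0.213). The groups overlapped for both. Siglech, a receptor of plasmacytoid dendritic cells, had 96.9, 65.6, 59.0 and 56.2 normalized counts in LCN2 samples, against 111, 158, 119 and 143 in GFP samples. Its difference was -0.95 ± 0.20 (limma adjusted p 0.142), and it passed the threshold in an alternative setting. B cell markers had 6 of 12 above 0 (median 0.00) and summed to 3529 to 17529 with LCN2 and 6841 to 20451 with GFP. The sum was mostly Ighm, the immunoglobulin mu heavy chain, at 3176 of 3529 in LCN2 sample 1 and 20123 of 20451 in GFP sample 3. By the median centred level of the 12 markers the lowest library was GFP sample 2 (-0.88) and the highest GFP sample 4 (0.99), with LCN2 sample 1 at -0.38. The B cell gene Ms4a1 was at no more than 133 normalized counts in any gonadal sample. T and NK cell markers, other lymphocyte genes, had 11 of 14 above 0 (median 0.26), with sums of 1147 to 2315 with LCN2 and 936 to 1740 with GFP. Mesothelium markers, of the layer that covers gonadal fat, were below 0 for 8 of 8 (median -1.11). Of them 4 had groups apart, against 9.11% of all genes (920 of 19536 apart and lower with LCN2). Limma's unadjusted p was below 0.05 for 5 of these markers, against 14.8% of all genes, and 0 passed limma at an adjusted p below 0.05. Their sum was 2505 to 6129 with LCN2, against 5798 to 12122 with GFP. In subcutaneous fat 5 of 11 dendritic cell markers were above 0 (median -0.12), with means of 7.17 to 7.46 rlog with LCN2, against 8.30, 8.03, 7.25 and 7.23 in GFP samples 1 to 4. There 12 of 14 macrophage markers were above 0 (median 0.13), with means of 9.88 to 10.37 rlog with LCN2 and 9.86 to 10.16 with GFP. Endothelial markers, whose cells carry class I, were above 0 for 8 of 8 genes in each depot, with medians of 0.40 and 0.37 and no gene past the threshold. The part of any cell type in the values of the 10 genes was not tested.

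For each class, the genes nearest in profile were found by the root mean square distance between centred log2 profiles over the 8 samples of a depot. In gonadal fat the nearest to the class I mean were H2-T24, Nuak2, Parp10, Tap2 and Cmpk2, at distances of 0.0879 to 0.0945, and the nearest to the class II mean were Lamc3, Lcp1, Pprc1, Arhgap30 and Plcg2, at 0.0721 to 0.105. In subcutaneous fat they were Ddhd1, Zfa-ps, Nab2, Herc6 and Nle1 for class I (0.0462 to 0.0594), and Nrros, Spi1, Myo1f, Cd55 and H2-DMa for class II (0.0698 to 0.0944). The class means themselves had a root mean square of 0.208 and 0.275 in gonadal fat and of 0.120 and 0.271 in subcutaneous fat for class I and class II. These are the nearest of 11945 gonadal and 11694 subcutaneous genes, given as a description.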

How the data were processed

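Fat of 16 samples was profiled by RNA sequencing, with groups and replicate numbers taken from the labels. Per the labels' protocols, RNA was taken from frozen tissue and a kit that keeps strand was used. The submitters' processing notes name HISAT2, DESeq2, GRCm38 and mm10. Not given in the sources used here are tool versions, the read counter and how it treated strand. The gonadal values the authors deposited are a signal per gene: counts divided by 1 size factor per sample, of which 100% of values above 0 came out whole in steps of 1 read within 1e-06. The subcutaneous values the authors deposited are rlog, on a log2 scale, of unknown depth. The tables were normalized separately and tested apart.

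limma 3.58.1 (R 4.3.3, intensity trend) was run on log2(normalized count + 1) for 19536 gonadal genes with a mean of at least 10, and on rlog for 20302 subcutaneous genes with a mean of at least 3. The first scale understates changes of low genes. Differences are LCN2 minus GFP. p-values were adjusted by Benjamini-Hochberg over all genes tested, with a threshold of 0.05, and measure the spread between these samples, which may be technical. edgeR 4.0.16 and DESeq2 1.42.0 were run on recovered reads as alternatives. Scripts were tested on simulated data. No 2 gonadal libraries of a group agreed within sampling noise (mean chi-square per gene of at least 42.0). Symbols matched 99.2% of identifiers in each table.

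The 10 genes and the other lists were chosen with earlier results of these data known. Of each pathway list, genes passing the test were to be named, otherwise up to 3 with the smallest p per depot, and likewise of each marker list. Other genes named for comparison (Tap2, Ciita, Iigp1, H2-Ob, H2-Eb2, Irf8 in subcutaneous fat, Adipoq, Ighm and Ms4a1) were chosen after their values were seen. H2-T9 and H2-Ea-ps were not analysed here.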

Additional observations from a re-analysis of the deposited data

Results flagged for a closer look

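Within each group of 4, a value was picked out when the highest or lowest sample stood apart from the other 3 by Dixon's criterion. For independent, normally distributed values, chance meets it in about 1 group in 20. Gonadal genes and lists entered as counts without logs, and many of the values share genes and libraries. That rate therefore need not hold here. Of 116 groups looked at (the 10 genes, the class means and the lists in each depot), 13 were picked out, and each is given with the gap to the nearest sample as a share of the group's range.

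Among the LCN2 gonadal samples, replicate 1 was the sample apart in 6 of them: Tap1 (0.917), the class I mean (0.886), class I processing (0.831), further class I genes (0.837), co-stimulation (0.954) and the interferon-induced genes (0.905). Among the LCN2 subcutaneous samples, replicate 1 was apart for Tap1 (0.910) and the interferon-induced genes (0.880). For the interferon-induced genes GFP replicate 4 was apart among GFP samples (0.843), at 9.71 rlog. No class II gene was picked out in either depot.

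The remaining values concern marker lists in gonadal fat. LCN2 replicate 4 was apart for skeletal muscle (0.918), LCN2 replicate 2 for mesothelium (0.883), GFP replicate 3 for the summed B cell markers (0.851) and GFP replicate 1 for hepatocytes (0.936). The B cell value is that of Ighm, with 20123 of the 20451 normalized counts in GFP replicate 3, which was highest for 1 of the 12 markers, while GFP replicate 4 was highest for 9. Of the 10 genes only B2m, in gonadal fat, had groups apart, so groups apart in opposite directions in the 2 depots could not occur.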

How the results depend on the processing

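No alternative called any of the 10 genes in either depot, and the lowest adjusted p was 0.108 (B2m, DESeq2). The count over all gonadal genes, 20, was 818 with DESeq2, 7 with edgeR, 11 at a mean of at least 50, 6 with scaling by library totals, and 0 without LCN2 4 and GFP 2 or without the 3 highest in hepatocyte transcripts (GFP 1, LCN2 1, LCN2 2). LCN2 4 and GFP 2 were named for skeletal muscle transcripts in an earlier analysis of these data. They are highest by the markers' median centred level (6.24 and 1.43, against at most 0.71 in the rest), but GFP 2 is not second by their sum. Leaving out 1 sample gave 1 to 66 genes: 2 without GFP 1, 1 without GFP 2, GFP 3 or LCN2 3, 3 without LCN2 4 and 66 without GFP 4. The count in subcutaneous fat was 0 throughout. With the replicate number as a block, 0 gonadal genes passed (2636 at an unadjusted p below 0.05) and 0 subcutaneous ones (3200). Same-numbered samples did not deviate together in every pair (correlations of -0.36 to 0.42 in gonadal and -0.36 to 0.34 in subcutaneous fat). With so few pairs, these mixed values cannot decide whether the numbers pair the samples.

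Several differences changed sign, some of them well away from 0, and the value with all samples follows in parentheses. Without the 3 libraries highest in hepatocyte transcripts, gonadal H2-D1 was -0.039 (0.06), Tap1 -0.065 (0.31), H2-Aa -0.0031 (0.24) and the interferon-induced Gbp7 -0.13 (0.32). These libraries include LCN2 1, and leaving out LCN2 1 alone gave -0.02 for H2-D1, -0.032 for Tap1 and -0.09 for Gbp7. H2-Aa was at least 0.13 when any 1 sample was left out. The cause was not tested. Without the 2 subcutaneous libraries with lymph node transcripts, H2-K1 was 0.064 (-0.01), Tap1 0.092 (-0.18), Nlrc5 0.10 (-0.17), H2-Q7 0.054 (-0.30), Cd86 0.096 (-0.34), Pdcd1lg2 0.064 (-0.28), Irf8 0.52 (-0.24) and Cd79b 0.63 (-1.28), and without the 3 with B cell transcripts, a setting added after seeing the data, H2-K1 was 0.11, Tap1 0.16, Nlrc5 0.11, H2-Q7 0.081, Cd86 0.042, Pdcd1lg2 0.019 and Irf8 0.43. Sample quality weights gave -0.088 for H2-Aa, -0.040 for H2-Ab1, -0.048 for H2-Eb1 and -0.088 for Cd74. Leaving out each sample in turn gave -0.02 to 0.13 for H2-D1, -0.032 to 0.47 for Tap1 and -0.09 to 0.49 for Gbp7 in gonadal fat. In subcutaneous fat it gave -0.062 to 0.038 for H2-K1, -0.12 to 0.19 for H2-Aa, -0.070 to 0.20 for H2-Ab1, -0.075 to 0.20 for H2-Eb1, -0.13 to 0.21 for Cd74 and -0.51 to 0.10 for Irf8. Class means moved by less than their spread under every alternative run. That spread was about as large as the gonadal differences, so this does not show them to be stable. Over the alternatives the gonadal difference lay between 0.067 and 0.28 for class I (0.22) and between 0.069 and 0.40 for class II (0.29). In subcutaneous fat the class II difference lay between -0.10 and 0.31 (0.02). Depth of the subcutaneous libraries is unknown.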
